A study of Homo sapiens with 8 samples.

Results

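The 38 genes described here encode the machinery of transport inside the primary cilium, namely the intraflagellar transport (IFT) complexes A and B, the BBSome, its assembly factors and regulators, and the motors that carry them. They were chosen by gene symbol for their role in the cilium, and all 38 were found among the 32803 gene symbols of the RNA-seq count table. Messenger RNA was counted in UWB1.289, an ovarian carcinoma line of human origin without working BRCA1, in UWB1.289+BRCA1, to which BRCA1 has been given back, and in a derivative of each line marked Olres, resistant to PARP inhibitors. The 4 groups were Olres BRCA1-proficient cells (passage 45), their BRCA1-proficient parents (passage 10), Olres BRCA1-deficient cells (passage 56) and their BRCA1-deficient parents (passage 29), with 2 libraries each (n = 2 throughout). All were grown in medium without drug. The sources used here give 1 resistant line per background and do not say whether it is a clone, so a difference between resistant and parental cells belongs to that line. Resistance and passage number changed together in both backgrounds and cannot be told apart. The parental lines also differed in passage (10 and 29), so BRCA1 state and passage cannot be told apart between them.

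A cilium is built and kept by trains of IFT proteins that move along its microtubules. Complex B and kinesin-II carry cargo outward to the tip, and complex A and the ciliary dynein carry it back, while the BBSome, a coat-like complex of Bardet-Biedl syndrome proteins, moves membrane receptors out of the cilium. Hedgehog signalling in vertebrates passes through this organelle. Factors of the RFX family drive many of these genes, and FOXJ1 drives those of motile cilia. In the fallopian tube, motile cilia mark the ciliated cells of the lining, and single primary cilia are found on many cultured epithelial cells.

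Libraries held between 24094821 and 34394107 counts. BRCA1 mRNA was read to check the labels, in CPM (counts of a gene scaled to a common library total with TMM factors). It stood at 2176 and 2365 CPM in resistant proficient and 212 and 191 CPM in parental proficient libraries. Deficient libraries held 34.7 and 34.8 CPM in resistant and 36.1 and 35.1 CPM in parental cells. BRCA1 level thus also differed between resistant and parental proficient cells, and its part in comparisons that use them was not tested. Of 6 ovarian carcinoma markers, all 6 reached 1 CPM in each group. By the test given below, 4 of them were lower in parental proficient than in parental deficient cells (log2 fold changes -1.54 to -1.01). That is 66.7%, against 30.1% of all genes tested. The fibroblast markers DCN and LUM were at 0 in 3 groups and summed to at most 0.121 CPM in parental proficient libraries. The 4 leukocyte markers summed to between 7.87 and 16.5 CPM in proficient and between 20.7 and 24.7 CPM in deficient libraries, and the endothelial pair to between 1.45 and 2.74 CPM in proficient and between 36.9 and 42.0 CPM in deficient libraries. Most of that split lay in CDH5, at a mean of 1.66 CPM in resistant proficient, 0.501 CPM in parental proficient, 38.1 CPM in resistant deficient and 35.4 CPM in parental deficient cells, and in CD68, at 2.77 CPM in parental proficient and 14.2 CPM in parental deficient cells. Their part in the results was not tested. Libraries differed in GC content. Tested genes with at least 61.6% GC lay off their 8-library mean by a median log2 value of 1.52 and 0.94 in resistant deficient libraries 1 and 2, against 0.29 and 0.07 in parental deficient ones, and by -0.49 and -0.85 in resistant proficient libraries, against -0.81 and -0.58 in parental proficient ones. Resistant deficient replicate 1 stood furthest out. The 38 genes had a median transcript GC content of 42.9% (34.9% to 59.7%), and 55.3% of them lay under 45% GC, against 36.6% of the genes tested. Counts over the 38 genes, over complex A and over each list below are therefore given also after the trend on GC content had been removed from each library, and members whose call changed with it are named. With that trend removed, 5 of the 6 carcinoma markers were lower in parental proficient cells (-1.34 to -0.13, KRT7 at -0.23) and PAX8 was higher (0.40). These were 83.3% and 16.7%, against 31.7% and 31.6% of all genes.

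Summed over the 38 genes, 1285 and 1391 CPM were counted in resistant proficient, 1234 and 1178 CPM in parental proficient, 830.4 and 871 CPM in resistant deficient and 880.3 and 899 CPM in parental deficient libraries. The proficient libraries all lay above the deficient ones, and the resistant deficient pair lay just below the parental deficient pair. These sums were not corrected for the GC trend. With it removed, the median log2 fold change of the 38 genes went from 0.07 to 0.24 between resistant and parental deficient cells. Between the parental lines it went from 0.44 to 0.14. All 38 genes passed the filter on low counts and were tested with edgeR's quasi-likelihood test. A gene rose or fell where its p, adjusted by Benjamini-Hochberg over 16221 genes, was under 0.05. IFT27 passed the filter only through the resistant deficient libraries (254 and 330 counts), with at most 4 counts in any other library. More cells of a kind and more RNA per cell cannot be told apart in such bulk samples.

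**Figure D1:**
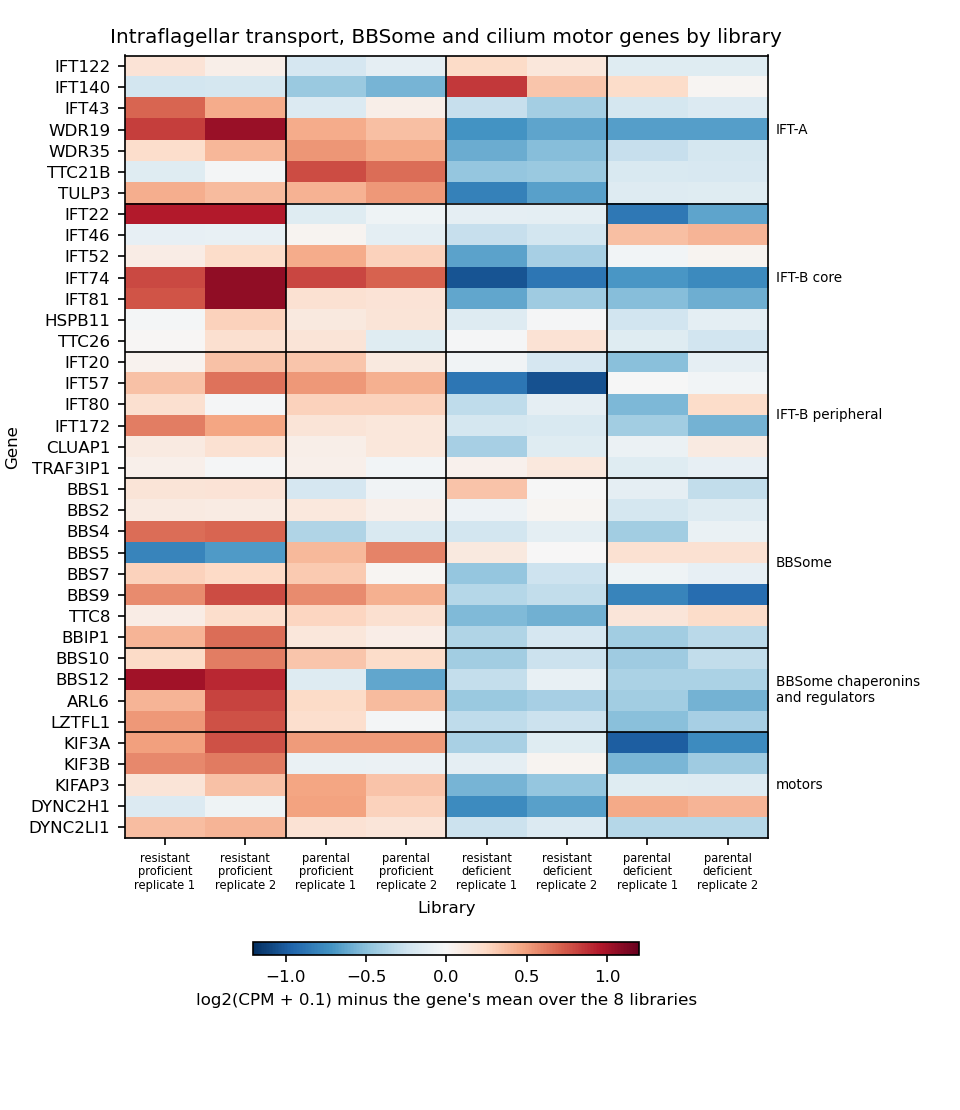
Level of each gene in each of the 8 libraries, as log2(CPM + 0.1) minus the gene's own mean over the libraries (red, above the mean; blue, below it). Columns are libraries and rows are genes grouped by complex; IFT27 is left out because it was at or near 0 in 6 libraries. Rows such as IFT74, WDR19 and KIF3A are red in all proficient and blue in all deficient libraries. Many other rows do not split that way, among them IFT140, IFT46, TTC26, BBS4, BBS5, BBS12 and DYNC2H1.

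Between resistant and parental BRCA1-proficient cells, 12 of the 38 genes rose, 3 fell and 23 did not pass, with a median log2 fold change of 0.14. Among all genes tested, 25.9% rose and 27.8% fell, with a median of 0.00. Once the GC trend was removed, 18 rose and 3 fell, against 32.5% and 30.8% of all genes. The 6 added were IFT27, IFT74, BBS9, BBS10, ARL6 and KIF3A. Between resistant and parental BRCA1-deficient cells, 9 rose, 9 fell and 20 did not pass, with a median of 0.07, against 28.9% rising and 27.0% falling and a median of 0.03 over all genes. After removal of the GC trend these counts became 19 and 7, against 31.6% and 27.2% of all genes. Then 12 genes rose that had not passed before (WDR19, IFT81, TTC26, TRAF3IP1, BBS2, BBS4, BBIP1, BBS10, BBS12, ARL6, LZTFL1 and DYNC2LI1), CLUAP1 fell, the rises of IFT140 and BBS1 were lost, and so were the falls of WDR35, TTC21B and KIFAP3. On leaving out any 1 deficient library fewer members rose, and fewer of all genes tested rose too. The share that rose in deficient cells, 23.7%, was thus near that of all genes under 1 scaling and, at 50%, above it under the other.

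Between parental cells, 22 genes were higher in BRCA1-proficient than in BRCA1-deficient cells, 2 were lower and 14 did not pass, with a median log2 fold change of 0.44. Of all genes, 32.3% were higher and 30.1% lower, with a median of 0.00. On GC-corrected counts, 16 were higher and 3 lower (31.6% and 31.7% of all genes), and the median was 0.14. There 8 of the 22 were lost, BBS1 and BBS5 were added as higher, IFT140 was lost as lower, and TTC8 and DYNC2H1 were added as lower. The libraries compared are also those between which passage, CDH5, CD68 and the carcinoma markers differed. The difference between the 2 resistance effects, proficient minus deficient, passed as higher in 11 and as lower in 3 genes, against 21.4% and 25.3% of all genes. On GC-corrected counts it passed in 11 and 6, against 25.8% and 29%, with TTC26, BBS2 and BBS9 added as lower. The parental libraries enter the parental comparison and a resistance comparison both, so these share samples. More members were higher without resistant deficient replicate 2, and fewer were lower without parental proficient replicate 1. The numbers over all genes moved the same way in both fits.

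**Figure D2:**
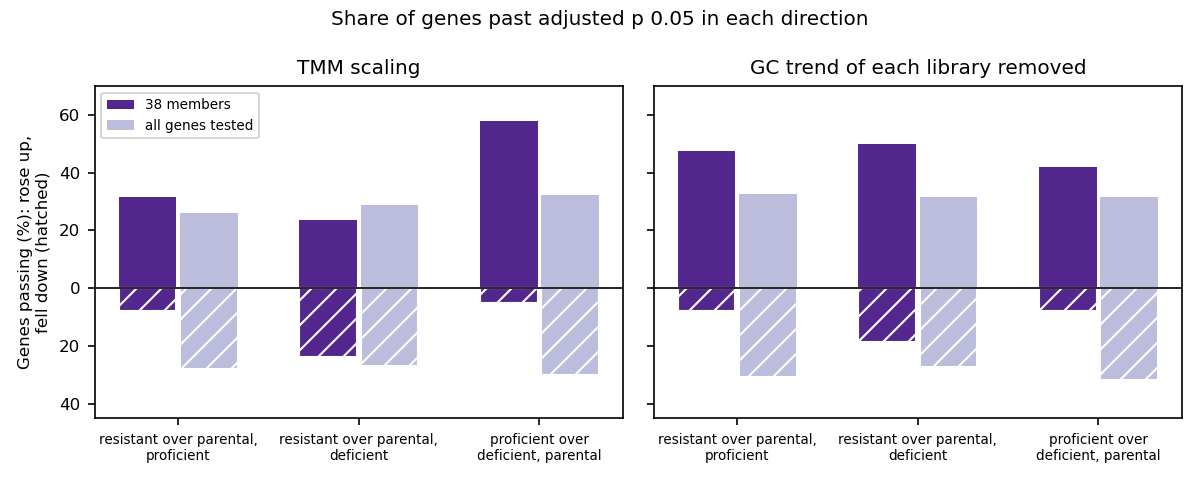
Percentage of the 38 genes (dark) and of all 16221 genes tested (pale) that rose (upward) or fell (downward, hatched) at an adjusted p under 0.05, in 3 comparisons, with TMM scaling (left panel) and with the GC trend of each library removed (right panel). The dark upward bar of the parental comparison stands at 57.9% on the left and at 42.1% on the right, and that of the resistant deficient cells stands at 23.7% and 50%.

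The changes were small beside those of other genes. A called change of at least 2-fold was seen for 3 of the 38 genes (7.89%) in resistant proficient cells, for 2 (5.26%) in resistant deficient cells and for 4 (10.5%) between the parental lines, against 20.1%, 19.6% and 24.8% of all genes. With the GC trend removed these were 5 (13.2%), 1 (2.63%) and 2 (5.26%), against 20.9%, 14.8% and 19.4% of all genes. Side by side, 4 genes rose in both resistant lines (IFT122, IFT22, IFT172 and KIF3B), 10.5% of the 38 against 10.2% of all genes. TTC21B and DYNC2H1 fell in both, 5.26% against 13.2% of all genes. Opposite calls were made for 0 members and 9.30% of all genes, and 11 members (28.9%) passed in neither line, against 23.1%. On GC-corrected counts 16 members (42.1%) rose in both lines, against 14.3% of all genes, DYNC2H1 alone fell in both (2.63% against 13.3%), 0 were opposite (13.6% of all genes) and 8 passed in neither (21.1% against 19.2%). The 16 include IFT27, which held 6 counts in resistant and 0 in parental proficient libraries. How many rose in both thus depended on the GC trend. TTC26, IFT80, CLUAP1, TRAF3IP1 and BBS7 passed in none of the 3 pairwise comparisons, 13.2% of the 38 against 12.6% of all genes, and on GC-corrected counts IFT140, IFT80, BBS7 and KIFAP3 did (10.5% against 11.1%).

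**Figure D3:**
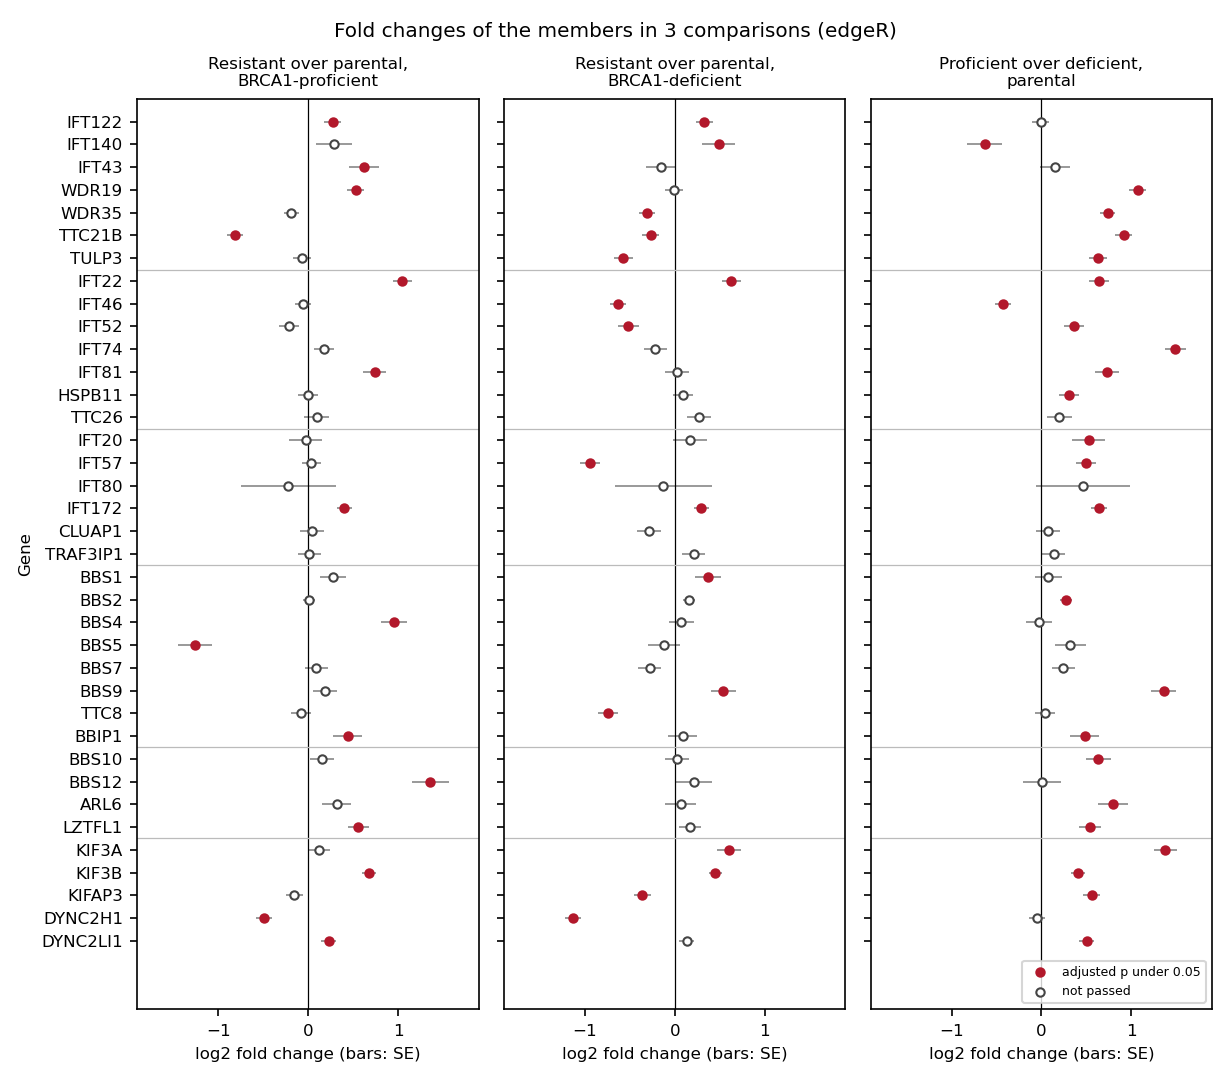
Log2 fold change of each gene with its SE, for resistant over parental proficient cells, resistant over parental deficient cells and proficient over deficient parental cells; red points passed at an adjusted p under 0.05 and open points did not. IFT27 (7.15 in deficient cells) lies off the scale and is left out. BBS12 (1.36) and BBS5 (-1.26) mark the ends of the first panel, and DYNC2H1 (-1.14) the low end of the second.

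IFT27 gave the largest change of the 38 genes, and was tested only because of its counts in the group where it was high. It encodes a small GTPase of complex B that pairs with IFT25, the product of HSPB11, and in mouse is needed for the BBSome and Hedgehog components to leave the cilium. IFT27 was counted at 9.14 and 9.54 CPM in resistant deficient libraries, against 0.132 and 0 CPM in parental deficient libraries, that is 584 and 4 counts per group. The resistant level was 152.8 times the parental one (exact 95% interval 59.4 to 563, counting error only), and the fitted log2 fold change was 7.15 ± 0.52 (SE, edgeR adjusted p = 3.00e-06). That fitted value passed in all 18 alternatives, which adds no support, because the gene was tested through the group where it was high. It lay between 6.07 and 11.1. It was 11.1 on leaving out parental deficient replicate 1, the source of all 4 parental counts, which depends on the prior count, and 6.07 on leaving out replicate 2.

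In BRCA1-proficient cells the IFT27 count was 6 in resistant and 0 in parental libraries, and a count of 0 allows a level of up to 0.0558 CPM over the parental group. The resistant level, as counted, was 2.03 times that limit. The exact 95% interval for resistant over parental cells had a lower end of 1.197-fold, counting error only. The fitted change did not pass (edgeR adjusted p = 0.0553), but passed in 7 of 17 alternatives, among them GC-corrected counts. Set beside resistant proficient cells, resistant deficient cells had 82.5 times the IFT27 level (exact 95% interval 37.7 to 226). The difference between the 2 resistance effects did not pass for IFT27 (-2.36 ± 9.45, adjusted p = 0.860), where both fitted changes start from groups at 0 or 4 counts.

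HSPB11, the partner of IFT27, passed in neither resistance comparison. HSPB11 was read at 38.1 and 46.9 CPM in resistant proficient, 42.0 and 43.0 CPM in parental proficient, 34.8 and 38.2 CPM in resistant deficient and 32.9 and 35.6 CPM in parental deficient libraries, so its libraries overlapped in both resistance comparisons (log2 fold changes 0.00 in proficient and 0.09 in deficient cells). LZTFL1, which acts with IFT27 in BBSome exit, had 21.0 and 21.7 CPM in resistant deficient libraries, against 18.3 and 19.6 CPM in parental deficient ones, and did not pass there. On chromosome 22 the nearest protein coding genes on one side of IFT27 were CACNG2, EIF3D and FOXRED2. CACNG2 held 1 count in resistant deficient and 0 in parental deficient libraries, and EIF3D averaged 307 and 280.0 CPM in the same groups, with a log2 fold change of 0.13 that did not pass. FOXRED2 rose in both resistant lines, by 0.65 in proficient and 0.52 in deficient cells. On the other side, PVALB, NCF4 and CSF2RB were at 0 in all 8 libraries.

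**Figure D4:**
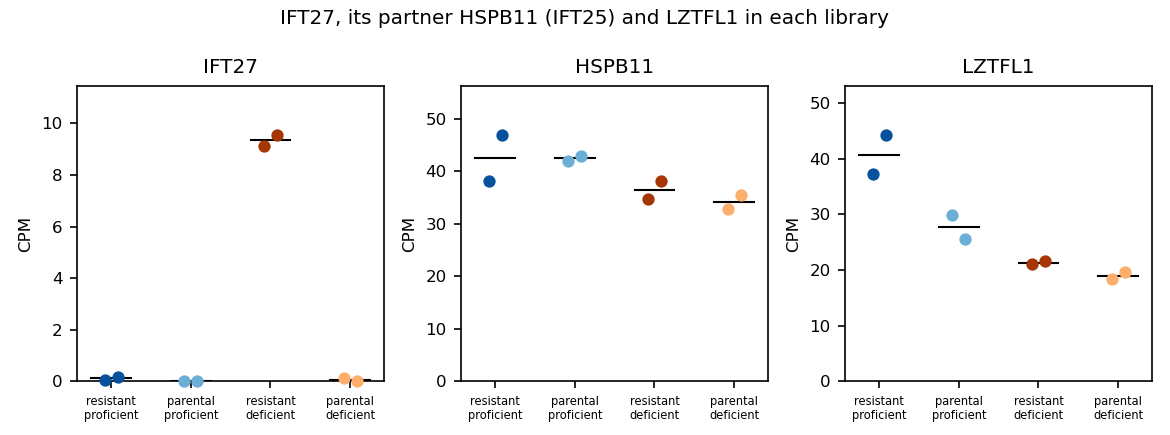
CPM of IFT27, of HSPB11 (the IFT25 gene) and of LZTFL1 in each library; points are libraries and lines are means of 2. IFT27 stands at 9.14 and 9.54 CPM in resistant deficient libraries and at most 0.167 CPM elsewhere, while HSPB11 lies between 32.9 and 46.9 CPM in all 8 libraries.

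Promoter sequence is shown because the call of a gene could be set beside the presence of an RFX-type motif near its start. In the 250 bases before each RefSeq start (GRCh38.p14), the half-site GTTGCC was searched on both strands, as was a facing pair of the half-sites GTNNCC and GGNNAC with 0 to 3 bases between them, which may overlap the single half-site. The half-site was found in 15 of 43 promoters of 35 members (34.9%) and in 10.2% of 35116 promoters of the table, and the facing pair in 16.3% and 3.29%. WDR35, IFT22 and BBS9 were not matched. The 8 stretches below are the 70 bases before the start of genes with different calls, on the strand of the gene, with the matched letters in capitals.

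IFT27 (chr22:36776120-36776189, minus strand): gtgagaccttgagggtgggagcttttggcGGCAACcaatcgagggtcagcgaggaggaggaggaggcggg

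IFT122 (chr3:129440154-129440223, plus strand): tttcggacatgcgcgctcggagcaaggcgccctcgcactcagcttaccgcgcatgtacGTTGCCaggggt

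WDR19 (chr4:39182459-39182528, plus strand): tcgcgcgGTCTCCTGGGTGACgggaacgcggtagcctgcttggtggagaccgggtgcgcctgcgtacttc

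BBS5 (chr2:169479424-169479493, plus strand): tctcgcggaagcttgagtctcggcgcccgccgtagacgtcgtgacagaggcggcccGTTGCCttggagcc

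TTC8 (chr14:88824581-88824650, plus strand): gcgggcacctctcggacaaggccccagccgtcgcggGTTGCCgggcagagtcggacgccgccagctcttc

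IFT57 (chr3:108222425-108222494, minus strand): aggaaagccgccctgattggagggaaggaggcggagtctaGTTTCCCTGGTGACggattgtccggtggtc

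TULP3 (chr12:2890821-2890890, plus strand): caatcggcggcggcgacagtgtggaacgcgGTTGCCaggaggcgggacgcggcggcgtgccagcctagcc

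DYNC2H1 (chr11:103109356-103109425, plus strand): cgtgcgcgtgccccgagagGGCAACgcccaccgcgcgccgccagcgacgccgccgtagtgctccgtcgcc

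The motif was found in such a stretch for 14 members. The 8 shown were picked to differ in call, so their variety follows from the choice. Of those not shown, BBIP1 and DYNC2LI1 rose in the proficient line, and ARL6, CLUAP1, IFT74 and TTC26 passed in neither line. IFT122 rose in both resistant lines, IFT27 rose in the deficient and WDR19 in the proficient one, BBS5 fell in the proficient one, TTC8, IFT57 and TULP3 fell in the deficient one, and DYNC2H1 fell in both. A match of letters is a description and does not show binding.

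Complex A holds the core proteins encoded by IFT122, IFT140 and WDR19, and the outer subunits encoded by IFT43, WDR35 and TTC21B, and works with TULP3, an adaptor that brings receptors into the cilium. Between resistant and parental proficient cells 3 of these 7 genes rose and 1 fell (42.9% and 14.3%, against 25.9% and 27.8% of all genes), with the GC trend removed too. Between resistant and parental deficient cells 2 rose and 3 fell (28.6% and 42.9%, against 28.9% and 27.0%), or 2 and 1 with the GC trend removed. TTC21B had 29.4 and 32 CPM in resistant proficient libraries, against 56.2 and 51.7 CPM in parental proficient ones (log2 fold change -0.81 ± 0.09, edgeR adjusted p = 2.35e-05). Its deficient libraries, at 23.5 and 24 CPM in resistant and 28.7 and 28.5 CPM in parental cells, also did not overlap. The call of the smaller fall there, 0.27, was lost with DESeq2 (-0.256) and with the GC trend removed. It was also lost without resistant deficient replicate 1 or either parental deficient library. The parental proficient libraries alone stood above 50 CPM. WDR19 had 62.9 and 72.8 CPM in resistant proficient and 48.4 and 45.5 CPM in parental proficient libraries (0.53 ± 0.09, edgeR adjusted p = 6.32e-04), and between 21.6 and 22.8 CPM in all 4 deficient libraries, where it gave 0.22 with a call on GC-corrected counts.

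IFT43 had 12.6 and 10.6 CPM in resistant proficient libraries, against 6.93 and 8.16 CPM in parental proficient libraries (0.62 ± 0.16, edgeR adjusted p = 0.00776), a call lost without resistant proficient replicate 1 (0.0503) or parental proficient replicate 1 (0.0573), within 8.78e-04 to 0.0573 over the alternatives. TULP3 had 14.7 and 16.4 CPM in resistant deficient libraries, against 23.1 and 23.3 CPM in parental deficient libraries (-0.57 ± 0.10, edgeR adjusted p = 7.86e-04). In proficient cells TULP3 stayed between 33.6 and 37.1 CPM with overlapping groups. IFT122 rose by 0.27 in resistant proficient and 0.33 in resistant deficient cells, on the log2 scale. The first call was lost without parental deficient replicate 1, resistant proficient replicate 1 or either parental proficient library (adjusted p up to 0.127), and the second without resistant deficient replicate 1 or either parental deficient library (up to 0.0932). WDR35 fell by 0.31 in resistant deficient cells, but by 0.03 without a call once the GC trend was removed, and its call was also lost without parental deficient replicate 2. IFT140, at 59.7% the most GC-rich of the 38 genes, reached 0.49 between resistant and parental deficient cells (edgeR adjusted p = 0.0445; range 0.00410 to 0.702 under the alternatives), lost in 12 of 18 alternatives and -0.07 with the GC trend removed.

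Between the parental lines, 4 complex A genes were higher in proficient cells and IFT140 was lower (-0.63). These were 57.1% and 14.3% of the 7, against 32.3% and 30.1% of all genes. With the GC trend removed 4 were higher and 0 lower (57.1% and 0%, against 31.6% and 31.7%). WDR19 differed by 1.07 ± 0.10 (edgeR adjusted p = 3.52e-06). TTC21B differed by 0.91 ± 0.09 (7.73e-06), or 0.49 with the GC trend removed, WDR35, at 82.0 and 77.5 CPM in parental proficient against 46.7 and 49.0 CPM in parental deficient libraries, by 0.74 ± 0.09 (2.20e-05), and TULP3 by 0.63 ± 0.10 (2.55e-04). These 4 calls held under all 18 alternatives, with WDR35 at 0.30 to 0.78. The IFT140 call was lost with the GC trend removed and without parental deficient replicate 1 or parental proficient replicate 2.

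Complex B carries cargo outward, and its core contains, besides IFT27 and HSPB11, the tubulin-binding pair of IFT74 and IFT81, the small GTPase of IFT22, and IFT46, IFT52 and TTC26. IFT22 rose in both resistant lines. Its levels were 48.4 and 48.4 CPM in resistant proficient against 22.6 and 24.2 CPM in parental proficient libraries (1.05 ± 0.11, edgeR adjusted p = 9.33e-06), and 23.3 and 23.1 CPM in resistant deficient against 13.8 and 16.1 CPM in parental deficient libraries (0.63 ± 0.11, edgeR adjusted p = 5.45e-04). Each pair of groups was clear of overlap, and resistant deficient libraries reached the level of parental proficient ones.

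IFT81 had 34.2 and 42.4 CPM in resistant proficient libraries, against 23.0 and 22.8 CPM in parental proficient libraries (0.74 ± 0.13, edgeR adjusted p = 5.26e-04), while its deficient libraries lay between 13.1 and 15.0 CPM with overlapping groups (0.03, or 0.30 with a call on GC-corrected counts). Its partner IFT74 passed in neither resistance comparison (0.18 in proficient and -0.21 in deficient cells). On GC-corrected counts IFT74 rose in resistant proficient cells (0.28, edgeR adjusted p = 0.00445; range 0.00445 to 0.675 under the alternatives) and gave 0.07 without a call in deficient cells. TTC26 gave 0.27 without a call in resistant deficient cells, and 0.54 with one on GC-corrected counts. IFT46, whose product brings outer dynein arms into the flagella of the alga Chlamydomonas, had 30.9 and 32.2 CPM in resistant deficient libraries, against 48.1 and 49.5 CPM in parental deficient libraries (-0.63 ± 0.09, edgeR adjusted p = 1.47e-04). In proficient cells IFT46 overlapped between groups, at 34.9 and 35.0 CPM in resistant and 38.3 and 34.4 CPM in parental libraries. IFT52, which links the core to the outer part of the complex, fell by 0.52 in resistant deficient cells and held under all 18 alternatives (-0.67 to -0.30), and gave -0.21 without a call in proficient cells. The IFT46 locus overlaps ARCN1 and TMEM25, and that of IFT74 overlaps PLAA, and counts of overlapping genes are uncertain because the strand setting is not given in the sources used here. The same holds for other members. Among them are IFT20 (TMEM97, 11606 counts to its 2102) and BBS2 (OGFOD1, 31959 to 21118). BBS1 (ZDHHC24, 3372 to 3558) and IFT140 (TELO2, 1415 to 1815) are others.

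Between the parental lines IFT74 gave the largest called difference of the 38 genes. It had 41.9 and 39.2 CPM in parental proficient libraries, against 14.7 and 14.1 CPM in parental deficient libraries (1.49 ± 0.12, edgeR adjusted p = 1.39e-06), and 1.05 with the GC trend removed. IFT81 was higher by 0.73 ± 0.13 (edgeR adjusted p = 5.62e-04), or 0.31 with the GC trend removed. IFT46 was lower by 0.43 on the log2 scale, at 38.3 and 34.4 CPM in parental proficient against 48.1 and 49.5 CPM in parental deficient libraries, and stayed so under all 18 alternatives. IFT22, IFT52 and HSPB11 were also higher in parental proficient cells, by 0.64, 0.36 and 0.31. The IFT22 call held under all 18 alternatives. That of IFT52 was lost with the GC trend removed (0.10) and without 3 of the 4 parental libraries. That of HSPB11 was lost without any 1 of the 4. It was also lost with library totals alone (0.236) and with a filter of at least 1 CPM in 2 libraries (0.241).

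The outer part of complex B, which binds kinesin-II, is encoded by IFT20, IFT57, IFT80, IFT172, CLUAP1 and TRAF3IP1. IFT57 had 22.0 and 19.5 CPM in resistant deficient libraries, against 40.2 and 39.5 CPM in parental deficient libraries (-0.94 ± 0.11, edgeR adjusted p = 4.52e-05). In proficient cells its groups overlapped, at 51.7 and 63.5 CPM in resistant and 58.0 and 54.4 CPM in parental libraries (0.04). Resistant deficient cells thus held the lowest IFT57 level of the 4 groups. IFT172, which is tied to the turn of trains at the ciliary tip in Chlamydomonas, rose by 0.40 in resistant proficient and by 0.30 in resistant deficient cells. The second of these calls was lost without parental deficient replicate 2 (0.19, adjusted p = 0.183; range 4.58e-04 to 0.183 under the alternatives) or resistant deficient replicate 2. Between the parental lines IFT172 and IFT57 were higher in proficient cells, by 0.64 and 0.50, and the IFT57 difference was 0.11 without a call once the GC trend was removed.

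IFT20, CLUAP1 and TRAF3IP1 passed in neither resistance comparison. On GC-corrected counts TRAF3IP1 rose by 0.41 and CLUAP1 fell by 0.27 in resistant deficient cells, against 0.21 and -0.29 without a call before. IFT20, found at the Golgi as well as in the cilium, was higher by 0.53 in parental proficient cells, a call lost without parental deficient replicate 1 (0.35) or parental proficient replicate 1 (0.39). IFT80 held 91 counts over all 8 libraries, while the transcript TRIM59-IFT80 that overlaps it held 1036, so its level of 0.230 to 0.484 CPM is uncertain and its comparison was limited by depth.

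The BBSome has 8 subunits, encoded by BBS1, BBS2, BBS4, BBS5, BBS7, BBS9, TTC8 and BBIP1. In resistant proficient cells BBS4 and BBS5 moved in opposite directions. BBS4, whose product joins the complex late and binds the centriolar satellite protein PCM1, had 25.2 and 25.8 CPM in resistant proficient libraries, against 12.3 and 14 CPM in parental proficient libraries (0.96 ± 0.14, edgeR adjusted p = 1.64e-04). BBS5, a lipid-binding subunit, had 2.74 and 2.96 CPM in resistant proficient libraries, against 6.33 and 7.29 CPM in parental proficient libraries (-1.26 ± 0.19, edgeR adjusted p = 1.62e-04). Both calls held under all 18 alternatives. In deficient cells neither passed, with 13.5 and 14.6 CPM of BBS4 and 5.22 and 4.83 CPM of BBS5 in resistant libraries, against 11.8 and 14.9 CPM and 5.46 and 5.45 CPM in parental ones. BBS4 rose there by 0.28 on GC-corrected counts.

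TTC8 fell in resistant deficient cells, to 13.3 and 12.9 CPM, against 21.4 and 22.5 CPM in parental deficient libraries (-0.74 ± 0.11, edgeR adjusted p = 2.32e-04), or by 0.45 with the GC trend removed. In proficient cells it lay between 20.6 and 23.1 CPM and the groups overlapped. BBS9, a scaffold subunit, rose in resistant deficient cells by 0.54, with 9.29 and 9.57 CPM against 6.74 and 6.22 CPM in parental deficient libraries, a call lost without parental deficient replicate 2 (0.45), and passed at 0.26 in resistant proficient cells on GC-corrected counts alone. BBS1, whose product binds the GTPase ARL6, reached 0.37 between resistant and parental deficient cells (edgeR adjusted p = 0.0498; range 0.00997 to 0.412 under the alternatives) and was lost in 13 of 18 alternatives, GC correction among them. BBIP1 rose by 0.44 in resistant proficient cells, a call that DESeq2 did not make and that was lost on leaving out parental deficient replicate 1, resistant proficient replicate 2 or either parental proficient library. It overlaps PDCD4, which held 28359 counts to its 1897. In resistant deficient cells BBIP1 rose by 0.44 on GC-corrected counts. BBS2 and BBS7 passed in neither resistance comparison. BBS2 had 86.5 and 91.7 CPM in resistant deficient libraries, against 78.2 and 81.3 CPM in parental deficient ones, which do not overlap (0.16, edgeR adjusted p = 0.0634; range 1.23e-05 to 0.408 under the alternatives). It passed there in 4 of 18 alternatives, among them GC-corrected counts (0.32) and RLE factors (0.17).

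Between the parental lines, BBS9 had 17.5 and 15.8 CPM in proficient libraries, against 6.74 and 6.22 CPM in deficient libraries (1.36 ± 0.14, edgeR adjusted p = 1.00e-05). BBS2 and BBIP1 were also higher in proficient cells, by 0.28 (0.15 with the GC trend removed) and 0.48. BBS1 and BBS5 passed as higher on GC-corrected counts alone, at 0.40 and 0.51. The BBIP1 value became 0.00 with the GC trend removed. Its call was also lost with DESeq2 (0.47) and when any 1 of the 4 parental libraries was left out. The BBS2 call was lost without parental proficient replicate 1 (0.22). TTC8, at 0.04 without a call, was lower by 0.40 with the GC trend removed (adjusted p = 6.77e-04; range 6.77e-04 to 1 under the alternatives).

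BBS10 and BBS12 encode chaperonin-like proteins that assemble the BBSome. ARL6 recruits it to membranes, and LZTFL1 controls its passage into the cilium. BBS12 had 8.88 and 8.28 CPM in resistant proficient libraries, against 3.91 and 2.80 CPM in parental proficient libraries (1.36 ± 0.21, edgeR adjusted p = 2.00e-04). Deficient libraries of BBS12 lay between 3.32 and 4.11 CPM, so only the resistant proficient pair stood apart. LZTFL1 rose by 0.56 in resistant proficient cells, with 37.3 and 44.2 CPM against 29.8 and 25.5 CPM in parental proficient libraries. All 4 genes passed in neither direction in deficient cells. On GC-corrected counts all 4 rose in both resistant lines.

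Between the parental lines ARL6 had 12.4 and 13.8 CPM in proficient libraries, against 7.93 and 7.14 CPM in deficient libraries (0.80 ± 0.17, edgeR adjusted p = 0.00145). BBS10 and LZTFL1 were also higher in proficient cells, by 0.64 and 0.54. On GC-corrected counts 0 of these 4 genes passed, at 0.31, 0.15 and 0.06 for ARL6, BBS10 and LZTFL1.

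Kinesin-II, the outward motor, is built from the products of KIF3A, KIF3B and KIFAP3, and DYNC2H1 and DYNC2LI1 encode the heavy chain and a light intermediate chain of the ciliary dynein. DYNC2H1 fell in both resistant lines. It had 53.8 and 58.4 CPM in resistant proficient against 84.6 and 73.4 CPM in parental proficient libraries (-0.49 ± 0.09, edgeR adjusted p = 6.54e-04), and 35.9 and 38.4 CPM in resistant deficient against 83.0 and 80.4 CPM in parental deficient libraries (-1.14 ± 0.09, edgeR adjusted p = 2.43e-06). Its parental lines overlapped. On GC-corrected counts both falls still passed, at -0.37 and -0.84.

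KIF3B rose in both resistant lines, with 127 and 132 CPM in resistant proficient against 80.7 and 81.2 CPM in parental proficient libraries (0.68 ± 0.08, edgeR adjusted p = 2.13e-05), and with 79.0 and 87.4 CPM in resistant deficient against 58.1 and 63.5 CPM in parental deficient libraries (0.45 ± 0.08, edgeR adjusted p = 4.82e-04). KIF3A, its partner in the motor, rose in deficient cells, with 20.3 and 24 CPM in resistant and 13.4 and 15.7 CPM in parental libraries (0.61 ± 0.13, edgeR adjusted p = 0.00258), and gave 0.12 without a call in proficient cells. With the GC trend removed these were 0.92 and 0.24, both with a call. KIFAP3, the adaptor subunit, fell by 0.36 in resistant deficient cells, but by 0.05 without a call once the GC trend was removed. DYNC2LI1 rose by 0.23 in resistant proficient cells, a call lost without parental deficient replicate 1, resistant proficient replicate 2 or either parental proficient library. On GC-corrected counts it passed in both lines, at 0.35 in proficient and 0.44 in deficient cells. Kinesin-II also carries cargo outside cilia, which these counts do not separate.

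Between the parental lines KIF3A had 38 and 38 CPM in proficient libraries, against 13.4 and 15.7 CPM in deficient libraries (1.38 ± 0.13, edgeR adjusted p = 5.12e-06). KIF3B, KIFAP3 and DYNC2LI1 were higher by 0.41, 0.56 and 0.51. After removal of the GC trend KIF3A and KIF3B still passed, at 0.92 and 0.30, and KIFAP3 and DYNC2LI1 did not, at 0.09 and 0.05, while DYNC2H1 passed as lower, at -0.51.

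**Figure D5:**
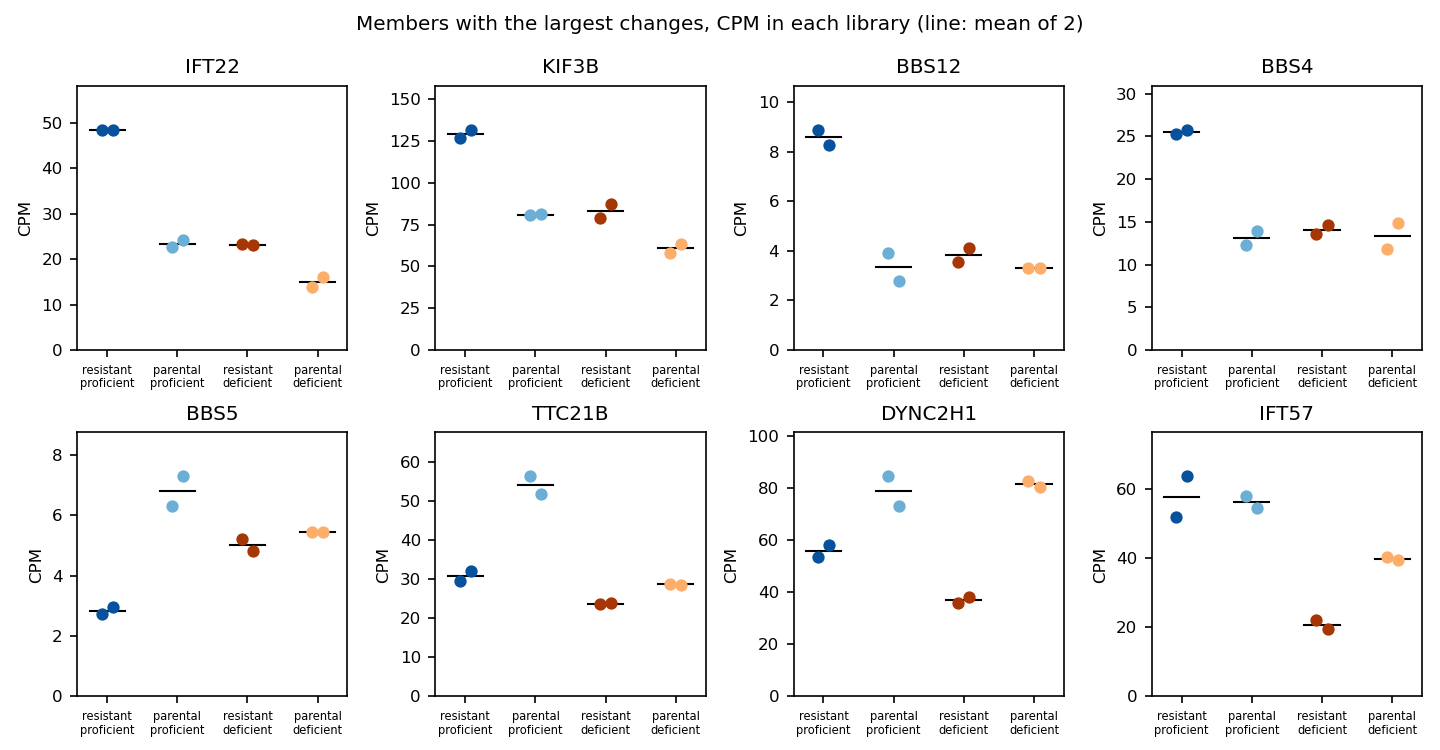
CPM of 8 of the genes with large changes in each library; points are libraries, lines are means of 2, and each axis starts at 0. IFT22 and KIF3B rose and TTC21B and DYNC2H1 fell in both resistant lines, BBS12 and BBS4 rose and BBS5 fell in the proficient line, and IFT57 fell in the deficient line.

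Resistance effects differed between the backgrounds by the test of the difference itself for 14 of the 38 genes (36.8%), fewer than the 46.7% of all genes tested. On GC-corrected counts these shares were 44.7% and 54.7%. BBS12 differed by 1.15 ± 0.29 (edgeR adjusted p = 0.00785), from effects of 1.36 in proficient and 0.21 in deficient cells. IFT57 differed by 0.98 ± 0.16 (4.34e-04), from 0.04 in proficient and -0.94 in deficient cells. BBS4 differed by 0.88 ± 0.20 (0.00394) and IFT43 by 0.78 ± 0.23 (0.0186), both higher in proficient cells. BBS5 differed by -1.14 ± 0.26 (0.00381), from -1.26 in proficient and -0.12 in deficient cells. For 4 of the 14, IFT57, IFT46, TTC8 and TULP3, the deficient change was a fall and the proficient change was under 0.10 in size.

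Levels per kb of exon put the genes on one scale. The order of the mean levels differed between groups. KIF3B stood highest in resistant proficient cells, at 21.2 CPM per kb, with IFT57 next at 15.3. In parental proficient cells IFT52 led at 16.1 CPM per kb, with IFT57 at 14.9 and KIF3B at 13.3. KIF3B led in resistant deficient cells at 13.6 CPM per kb, and in parental deficient cells it stood at 9.96, below IFT46 at 12.8 and IFT52 at 12.5 CPM per kb, whose libraries overlapped. IFT27 was lowest in 3 groups and IFT80, at 0.0443 CPM per kb, in resistant deficient cells. Within the BBSome, BBS2 was the highest in each group, at 9.57 to 11.7 CPM per kb, and the other subunits lay between 0.625 and 6.15 CPM per kb.

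Other transport genes of the cilium were listed for comparison. Of these 23, 11 rose and 4 fell between resistant and parental proficient cells (47.8% and 17.4%, against 25.9% and 27.8% of all genes), and likewise with the GC trend removed. Between resistant and parental deficient cells 8 rose and 4 fell (34.8% and 17.4%, against 28.9% and 27.0%), or 9 and 5 with the GC trend removed. In parental proficient cells 9 were higher and 7 lower than in parental deficient ones (39.1% and 30.4%, against 32.3% and 30.1%), or 8 and 5 with the GC trend removed. Their medians were 0.46, 0.14 and 0.00. The named genes of this and the next lists were chosen after their values were seen. TTC30A and TTC30B, near-identical genes of a complex B subunit whose reads may be shared, rose in resistant proficient cells. TTC30A averaged 71.3 ± 0.12 CPM in resistant proficient and 14.7 ± 0.468 CPM in parental proficient libraries (SD, n = 2 each; log2 fold change 2.27 ± 0.10, edgeR adjusted p = 2.37e-08), and TTC30B rose by 1.40 ± 0.14. The TTC30A effect was larger in proficient than in deficient cells by 2.07 ± 0.14 (edgeR adjusted p = 1.17e-06). IFT88, a core complex B gene, averaged 6.93 ± 1.88 CPM in parental proficient and 3.27 ± 0.16 CPM in parental deficient libraries (1.08 ± 0.21, edgeR adjusted p = 0.00103), a difference of 0.63 with the GC trend removed. It passed in neither resistance comparison, but in resistant deficient cells rose on GC-corrected counts (0.73, adjusted p = 0.00291; range 0.00236 to 0.275 under the alternatives), against 0.45 without a call before.

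Of 35 transition zone and basal body genes, which gate and anchor the cilium, 7 rose and 9 fell in resistant proficient cells (20% and 25.7%, against 25.9% and 27.8% of all genes), 9 rose and 8 fell in resistant deficient cells (25.7% and 22.9%, against 28.9% and 27.0%), and 9 were higher and 12 lower in parental proficient cells (25.7% and 34.3%, against 32.3% and 30.1%). With the GC trend removed the counts were 13 and 9, 13 and 5, and 11 and 14. CC2D2A, a transition zone gene, rose in one background and fell in the other. It averaged 31.4 ± 1.03 CPM in resistant proficient and 8.83 ± 0.222 CPM in parental proficient libraries (1.83 ± 0.12, edgeR adjusted p = 3.63e-07), and 3.10 ± 0.111 CPM in resistant deficient and 20.2 ± 0.801 CPM in parental deficient libraries (-2.70 ± 0.13, edgeR adjusted p = 1.05e-07). The difference was 4.53 ± 0.18 (1.78e-08). TCTN2, another transition zone gene, rose by 2.16 ± 0.21 in resistant proficient cells (edgeR adjusted p = 5.93e-06).

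Of 20 Hedgehog pathway genes, 17 were tested. In resistant proficient cells 9 rose and 1 fell (52.9% and 5.88%, against 25.9% and 27.8% of all genes), in resistant deficient cells 10 rose and 3 fell (58.8% and 17.6%, against 28.9% and 27.0%), and between parental lines 7 were higher and 7 lower in proficient cells (41.2% each, against 32.3% and 30.1%). With the GC trend removed the counts were 9 and 1, 9 and 3, and 8 and 7. The 1 that fell in resistant proficient cells was GLI1, with 2 counts against 25 in parental proficient libraries (-3.48 ± 1.10, edgeR adjusted p = 0.0201). SMO, the receptor-like activator of the pathway, averaged 4.39 ± 0.814 CPM in resistant deficient and 1.56 ± 0.216 CPM in parental deficient libraries (1.49 ± 0.25, edgeR adjusted p = 5.06e-04; 0.79 with the GC trend removed), and GLI3, a transcription factor of the pathway, rose by 0.97 ± 0.15 there. HHIP, a secreted inhibitor, averaged 84.6 ± 0.917 CPM in resistant deficient and 31.0 ± 0.531 CPM in parental deficient libraries (1.45 ± 0.13), and at most 0.642 CPM in either proficient group. EVC, which acts below SMO at the base of the cilium, rose by 1.69 ± 0.24 in resistant deficient cells and held 2 counts in each proficient group. The 3 that fell in resistant deficient cells were EVC2, the partner of EVC, with 2 counts against 64 in parental deficient libraries, the coreceptor gene GAS1 (-1.32), and PTCH1, the receptor and a target of the pathway (-0.32, edgeR adjusted p = 0.0479; range 0.0140 to 0.191 under the alternatives, lost in 10 of 18).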

How the data were processed

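RNA-seq counts of 8 libraries in 4 groups were analysed. The deposited table holds raw counts, whole numbers of reads per gene symbol, for 32803 symbols. Build GRCh37 is named, and Subread 2.0.1 with featureCounts, Trimmomatic 0.39 and DESeq2 1.24.0 are listed without roles, per the submitters' processing notes; the sources used here give no annotation, strand setting or handling of multiply mapped reads. Groups, passages and replicate numbers came from the sample titles. The labels do not say whether replicates were separate cultures, so the spread behind each p-value is that between these libraries and may be technical; no 2 libraries agreed within sampling noise (chi-square per degree of freedom 4.27 to 23.4).

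The test was quasi-likelihood (edgeR 4.0.16, R 4.3.3), with TMM factors, filterByExpr (16221 genes kept), all libraries in 1 fit and 4 residual degrees of freedom. The 3 pairwise contrasts and their interaction were each adjusted by Benjamini-Hochberg over all genes tested. The SE is the log2 fold change over the square root of F. CPM are relative to TMM-scaled totals, and 3 counts stand for a count of 0. Intervals and floors cover counting error only. The GC trend of each library was a natural spline of 5 degrees of freedom on GENCODE v29 transcript GC content. The other alternatives were RLE factors, library totals, 2 other filters, DESeq2 1.42.0, the 2 groups alone, the replicate block, and each library left out; a crossed block was added after seeing the data. The main edgeR fit was run on simulated counts that held no GC trend, and the other steps were not. Gene order, overlapping loci and promoter sequences are from RefSeq (GRCh38.p14), matched by symbol.

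The 38 genes and the lists were chosen with earlier results of these data known. Values in full are given, per pairwise comparison, for up to 8 called members with the largest change, for up to 5 differences between backgrounds, and for members near 0 counts in a group.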

Additional observations from a re-analysis of the deposited data

Results flagged for a closer look

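Resistance effects that differed between the backgrounds, by edgeR's test of the difference (proficient minus deficient, log2), were found for 14 of the 38 genes (36.8%), a smaller share than the 46.7% of all genes tested. The effect was higher in proficient cells for BBS12 (1.15), IFT57 (0.98), BBS4 (0.88), IFT43 (0.78), IFT81 (0.71), TTC8 (0.67), DYNC2H1 (0.64), IFT46 (0.58), WDR19 (0.54), TULP3 (0.51) and IFT22 (0.42). It was lower in proficient cells for BBS5 (-1.14), TTC21B (-0.54) and KIF3A (-0.48). The calls of IFT43, TTC21B, IFT22 and KIF3A were lost in at least 1 of 17 alternatives, all 4 of them without parental proficient replicate 1 (0.73, -0.42, 0.43 and -0.42), and the other 10 were kept in all 17.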

How the results depend on the processing

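Of the called changes of members, 11 of 15 in proficient, 10 of 18 in deficient and 12 of 24 in parental cells kept their direction and call in all 18 alternatives, as did 10 of 14 differences in 17. After removal of the GC trend, 19 members rose in resistant deficient cells and the difference was lower in proficient cells for 6; with the replicate block added these were 19 and 6, and 4 were lower in parental proficient cells. Values that turned sign with the GC trend removed and passed in at least 1 of the 2 fits were, in resistant deficient cells, -0.070 for IFT140, 0.220 for WDR19 and 0.003 for TTC21B, and between parental lines -0.400 for TTC8, -0.002 for BBIP1 and -0.033 for TTC30A. With the replicate block added they were -0.071, 0.220, 0.004, -0.400, -0.001 and -0.033, and BBS7 passed between parental lines at -0.231. Without a call in either fit, the GC correction also turned 3 members in deficient cells (IFT74, IFT80 and BBS7), 2 in proficient cells, 5 between parental lines (IFT122, TTC26, TRAF3IP1, BBS7 and BBS12) and 5 differences. The cause was not tested.

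The labels' replicate numbers did not pair the libraries of all 4 groups. Correlations of same-numbered deviations were 0.46 to 0.63 among resistant deficient, parental deficient and resistant proficient libraries. Between these and parental proficient libraries they were -0.53 to -0.35. The replicate block alone left the counts at 12 and 3, 9 and 9, 22 and 2, and 11 and 3. A block with the parental proficient numbers swapped gave 14 rising and 5 falling in proficient, 11 and 11 in deficient, 22 and 2 between parental and 16 and 3 for the difference. Over all 16221 genes that block gave 4855 and 5113, 5275 and 4895, 5668 and 5346, and 4086 and 4977. With any 1 library left out, fewer members rose in deficient cells than in the main fit, and fewer of all genes did. The numbers lower in parental proficient cells and those for the difference also moved. The lone library left in a group was assumed to vary like the others. Without parental proficient replicate 1, 8 rose in proficient cells. Depth limits IFT27 outside resistant deficient cells and IFT80 throughout.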

Other observations

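Among 12 factors that regulate ciliary genes, 10 were tested, and 2 rose and 2 fell in resistant proficient cells (20% each, against 25.9% and 27.8% of all genes), 1 rose and 4 fell in resistant deficient cells (10% and 40%, against 28.9% and 27.0%), and 3 were higher and 1 lower in parental proficient than in parental deficient cells (30% and 10%, against 32.3% and 30.1%). With the GC trend removed the counts were 3 and 3, 1 and 3, and 4 and 2. FOXJ1, the regulator of motile cilia, averaged 7.86 ± 2.82 CPM in resistant proficient and 0.112 ± 0.0122 CPM in parental proficient libraries (SD, n = 2 each; log2 fold change 6.09 ± 0.47, edgeR adjusted p = 1.11e-06), and 0.343 and 0.125 CPM in resistant and parental deficient libraries, a change that did not pass. RFX3 averaged 3.85 ± 0.616 CPM in resistant deficient and 7.99 ± 0.0502 CPM in parental deficient libraries (-1.06 ± 0.16, edgeR adjusted p = 1.88e-04). In parental proficient libraries RFX3 averaged 25.2 ± 1.11 CPM, higher than in parental deficient ones by 1.66 ± 0.14 (edgeR adjusted p = 2.27e-06). GLIS3, a ciliary zinc finger factor, averaged 51.6 ± 1.97 CPM in parental proficient and 12.7 ± 1.07 CPM in parental deficient libraries (2.02 ± 0.11) and fell by 1.14 on the log2 scale in resistant deficient cells. MYB, which acts in multiciliated cells, fell by 1.69 in resistant proficient and by 0.58 in resistant deficient cells, or by 0.36 there with the GC trend removed.

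The 16 markers of multiciliated cells summed to between 22.5 and 26.6 CPM in resistant proficient, 10.4 and 11.3 CPM in parental proficient, 27.6 and 27.8 CPM in resistant deficient and 19.0 and 20.3 CPM in parental deficient libraries, and 3 to 5 of them were at 0 in each group. Of the 10 tested, 6 rose and 0 fell in resistant proficient cells (60% and 0%), 3 rose and 1 fell in resistant deficient cells (30% and 10%), and 0 were higher and 1 lower in parental proficient cells (0% and 10%), or 6 and 1, 5 and 2, and 2 and 3 with the GC trend removed, beside the shares of all genes above. The 3 that rose in deficient cells were CAPS (62 counts in resistant and 13 in parental libraries), DNAI1 (8 and 0 counts) and DNAH5 (log2 fold change 0.52), and each of these calls was lost on leaving out 1 deficient library. SPAG6, a gene of the motile axoneme and the one that fell there, held 114 counts in resistant proficient and 13 in parental proficient libraries (3.11 ± 0.51, edgeR adjusted p = 5.08e-04), and 0 in resistant deficient against 31 in parental deficient libraries. The part of such cells in the changes of the IFT and BBSome genes was not tested. These genes were named after their values were seen.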
